A study of Mus musculus with 8 samples.

Results

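The genes described here were the matrix proteases of the matrix metalloproteinase (MMP) and ADAMTS families, the ADAMTS-like proteins that resemble ADAMTS proteases but lack the protease domain, and the tissue inhibitors of metalloproteinases (TIMPs). They were all genes whose mouse symbol began with Mmp and a digit, with Timp and a digit, or with Adamts. The rule found 51 genes among the 53787 in the count files, made up of 23 Mmp, 4 Timp, 19 Adamts and 5 Adamtsl genes. All 51 stood in the files of the 3T3 line and 50 in those of the Scid.adh line, where Mmp1a was missing. The series concerned TCF-1, an HMG-box transcription factor encoded by Tcf7 that early T cell development requires, and RNA-seq counted reads per gene in 8 libraries, with 2 in each of 4 groups. NIH-3T3 is a mouse embryonic fibroblast line and Scid.adh a mouse thymic lymphoma line that resembles DN3 thymocytes, an early stage of T cell development.

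The induced 3T3 cells had the genotype Tcf7 induced and the treatment TCF1 induced. The normal 3T3 cells were wild type and untreated by the labels. Names in the headers of all 4 3T3 files carried Cas9, an empty vector and 72 hours, and doxycycline stood in those of the induced libraries alone, so that doxycycline and TCF-1 cannot be told apart as the source of a difference. The knockout Scid.adh cells had the genotype Tcf7-/- and the treatment TCF1 KO, and the empty vector Scid.adh cells were wild type. How many clones each group came from, and whether its libraries came from separate cultures, was not given, so p-values reflect no more than library-to-library spread, which may be technical. Tcf7 had 946 and 972 CPM (read counts scaled to the library size) in induced 3T3 cells, against 14.5 and 14.6 CPM in normal 3T3 cells. In knockout Scid.adh cells it had 646 and 624 CPM, against 1318 and 1325 CPM with the empty vector. The labels thus held in direction, with Tcf7 reads remaining in the knockout.

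Total counts were 13850213 to 16857868 in induced and 16174002 to 17523677 in normal 3T3 libraries, and 7740198 to 8217933 in knockout and 9847239 to 10392402 in empty vector Scid.adh libraries. Summed over 8 fibroblast markers, 3T3 cells had 24995 to 25096 CPM when induced and 26392 to 26998 CPM when normal, and over 8 T lineage markers at most 18.3 CPM. The same T lineage markers summed to 2008 to 2029 CPM in knockout and 2443 to 2493 CPM in empty vector Scid.adh cells. Libraries of a group varied less in 3T3 (biological coefficient of variation 2.41%) than in Scid.adh (5.94%), so that smaller differences could be called in 3T3.

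MMPs are secreted or membrane-bound zinc proteases that are made as inactive proforms and together can cut nearly every component of the extracellular matrix. ADAMTS proteases act on narrower sets of substrates, such as procollagens, aggrecan and versican. TIMPs block the active site of MMPs, and TIMP-3 also blocks several ADAM and ADAMTS proteases. Fibroblasts are a main source of both the proteases and the inhibitors, and transcript levels do not show how much protease is active.

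In 3T3 cells with TCF-1 induced, the gelatinase Mmp9, the stromelysin Mmp11, the inhibitors Timp1 and Timp3 and the procollagen protease Adamts2 rose, while the more abundant Mmp2 and its activator Mmp14 fell. Of the 51 genes, 30 had enough counts to be tested. Of these, 10 rose, 7 fell and 13 did not pass edgeR's quasi-likelihood test at a Benjamini-Hochberg adjusted p under 0.05 over all tested genes. Of all 18185 genes tested, 18.5% rose and 18.3% fell. Calls were more frequent among abundant genes, where 25.2% rose and 23.8% fell of the genes averaging 5 CPM or more in a group, and 16 of the 24 members of that level were called. The median log2 fold change of the 30 was 0.089, and that of all tested genes was 0.00037. Against a change of 1.5-fold, the test called 4 of the 30 higher (Mmp9, Mmp11, Timp1 and Adamts2) and 1 lower (Adamtsl1), where it called 2.64% of all genes higher and 2.4% lower. With DESeq2 9 of the members were higher and 4 lower, against 11.4% and 11.7% of the genes it tested.

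**Figure D1:**
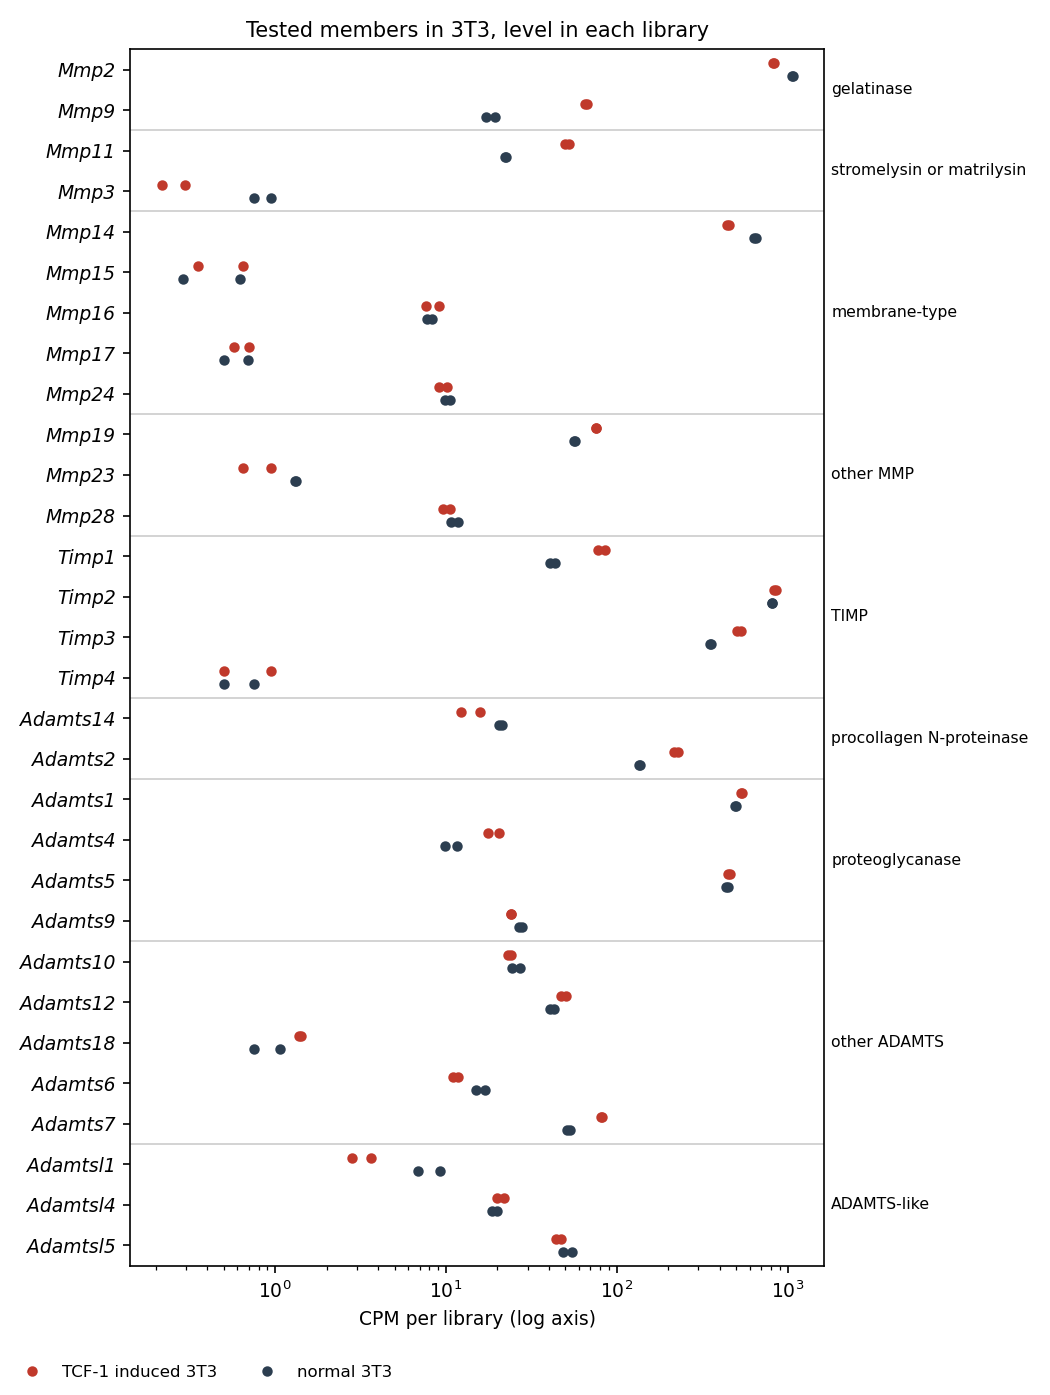
Levels of the 30 tested matrix protease and inhibitor genes in 3T3 cells, as CPM on a log scale, with a point for each induced and each normal library. Timp2, Mmp2, Adamts1, Mmp14, Timp3 and Adamts5 lie above 350 CPM in all 4 libraries, and Mmp9 shows the widest gap, at 65.4 and 66.7 CPM induced against 17.2 and 19.3 CPM normal.

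The gelatinases cut denatured collagen and the type IV collagen of basement membranes, and the pair moved in opposite directions. Mmp9, gelatinase B (chromosome 2, 164940780 to 164955850, plus strand, GRCm38), had 66.7 and 65.4 CPM in induced cells, against 19.3 and 17.2 CPM in normal cells. Both induced libraries lay far above both normal ones, a fitted difference of 1.86 on the log2 scale (SE 0.072, edgeR adjusted p = 1.61e-25), or 3.63-fold. Mmp2, gelatinase A (chromosome 8, 92827291 to 92853420, plus strand), had 827 and 817 CPM in induced cells, against 1072 and 1058 CPM in normal cells. The groups did not overlap, and Mmp2 fell by 0.37 on the log2 scale (SE 0.030, edgeR adjusted p = 3.14e-14). Per kilobase of exon, the mean level of Mmp2 was 244 CPM in induced and 316 CPM in normal cells, so that it stayed well above Mmp9, at 18.7 CPM per kilobase in induced and 5.16 in normal cells.

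Mmp11, stromelysin-3, is a secreted MMP that furin can activate inside the cell. It had 52.2 and 49.5 CPM in induced cells, against 22.5 and 22.0 CPM in normal cells. Both induced libraries lay above both normal ones, a difference of 1.19 on the log2 scale (SE 0.071, edgeR adjusted p = 1.28e-18), or 2.29-fold. The exons of Mmp11 overlap those of Chchd10 on the opposite strand over 155 bases, and Chchd10 itself had 0.87 CPM on average over the 3T3 libraries. Reads of overlapping genes on opposite strands cannot be told apart where counting ignores strand, and the strand setting is not given in the sources used here. Mmp3, stromelysin-1, which cuts proteoglycans and activates other MMPs, was close to the limit of detection. It had 5 and 3 counts in induced libraries, or 0.294 and 0.216 CPM, against 15 and 13 counts in normal libraries, or 0.938 and 0.747 CPM. Mmp3 passed the filter on low counts through the normal libraries alone. The groups did not overlap and the call was a fall (log2 fold change -1.66, SE 0.53, edgeR adjusted p = 0.0111), but it was lost whichever of the 4 libraries was left out, with log2 fold changes of -1.91 to -1.49. As a marker of these fibroblasts Mmp3 was therefore nearly absent, whereas Mmp2, Timp1 and Timp3 were well expressed.

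Mmp3 belongs to a cluster of 10 Mmp genes on chromosome 9, within 427072 bases from 7272514 to 7699585 (GRCm38). The cluster also holds the collagenase group, Mmp1a, Mmp1b, Mmp8 and Mmp13, of which Mmp1a is annotated as a polymorphic pseudogene. In order, the genes are Mmp13, the macrophage elastase Mmp12, Mmp1b, Mmp3, Mmp1a, the stromelysin Mmp10, Mmp8, Mmp27, the enamel protease Mmp20 and the matrilysin Mmp7. The other 9 genes together had 5 counts over both induced libraries and 11 over both normal libraries, and no single gene exceeded 7 counts in a library. Mmp1a, Mmp1b, Mmp7 and Mmp10 had no count in any 3T3 library, which allows up to 0.172 to 0.216 CPM per library at 3 counts, a limit that covers counting error only. Genes of this cluster are known as targets of the AP-1 transcription factors, and the RefSeq promoter windows used here run from 250 bases before to 50 after each gene's start. The motif TGANTCA, the AP-1 core, read on both strands, was in the windows of 8 of the 10 clustered genes and of 0 of the other 26 members with a RefSeq entry. It was in 7.81% of all 32851 windows of this length. Each of the 8 matches is shown with the flanking 27 bases on either side, on the strand of its gene, since the core is what these windows share, with the core in capitals (RefSeq, GRCm38.p6). They lie at chr9:7272452-7272512 for Mmp13, chr9:7347303-7347363 for Mmp12, chr9:7388086-7388146 on the minus strand for Mmp1b, chr9:7445749-7445809 for Mmp3, chr9:7464041-7464101 for Mmp1a, chr9:7502252-7502312 for Mmp10, chr9:7628109-7628169 for Mmp20 and chr9:7692000-7692060 for Mmp7.
Mmp13: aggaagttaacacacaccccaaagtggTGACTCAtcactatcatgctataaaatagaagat
Mmp12: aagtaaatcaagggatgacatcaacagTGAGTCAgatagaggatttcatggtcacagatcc
Mmp1b: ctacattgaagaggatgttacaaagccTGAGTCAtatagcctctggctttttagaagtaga
Mmp3: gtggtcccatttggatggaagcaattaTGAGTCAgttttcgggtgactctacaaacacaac
Mmp1a: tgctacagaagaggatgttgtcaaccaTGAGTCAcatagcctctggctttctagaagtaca
Mmp10: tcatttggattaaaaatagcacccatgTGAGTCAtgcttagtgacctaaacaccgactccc
Mmp20: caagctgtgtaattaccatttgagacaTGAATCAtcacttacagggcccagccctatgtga
Mmp7: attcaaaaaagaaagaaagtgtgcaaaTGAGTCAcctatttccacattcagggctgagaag

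The core began between 35 bases (Mmp13) and 95 bases (Mmp20) before the RefSeq start of its gene. For Mmp12 the window, 7347124 to 7347423, lies inside the GENCODE gene, which begins at 7344381. In 6 of the 8 the letters were TGAGTCA, with TGACTCA in Mmp13 and TGAATCA in Mmp20. These matches are a description of the sequence, and of the 8 genes only Mmp3 had enough counts in 3T3 for a test.

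**Figure D2:**
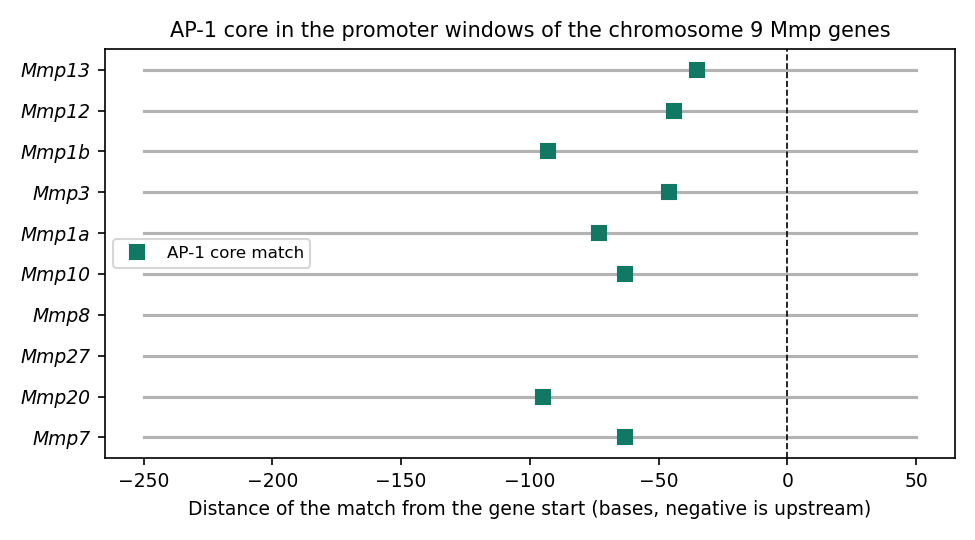
Position of the AP-1 core TGANTCA in the promoter windows of the chromosome 9 Mmp genes, in bases from the RefSeq start, from 250 before to 50 after. The matches of the 8 genes lie between 95 and 35 bases before the start, in genes that had few or no counts in 3T3 cells.

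The membrane-type MMPs stay anchored at the cell surface. Mmp14, the membrane-type 1 MMP that activates the Mmp2 proform in a complex with TIMP-2 (chromosome 14, 54431612 to 54445364, plus strand), had 454 and 444 CPM in induced cells, against 653 and 633 CPM in normal cells. The groups were well apart, and Mmp14 fell by 0.52 on the log2 scale (SE 0.033, edgeR adjusted p = 8.52e-18). Of the 5 membrane-type genes tested it was the only call. Mmp16 (7.66 and 9.08 CPM induced, 8.26 and 7.70 CPM normal) and Mmp24 (9.13 and 10.2 CPM induced, 10.5 and 9.82 CPM normal) overlapped between groups. The remaining Mmp15 and Mmp17 were under 1 CPM in every 3T3 library and did not pass, and Mmp25 was too low to test.

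Among the other MMPs, Mmp19, a secreted protease of basement membrane proteins, had 75.6 and 75.5 CPM in induced cells, against 56.1 and 56.6 CPM in normal cells. It rose by 0.42 on the log2 scale (SE 0.055, edgeR adjusted p = 1.66e-08) with no overlap. Its exons overlap those of Tmem198b over 789 bases on the opposite strand, and Tmem198b passed in the same direction (log2 fold change 0.31, edgeR adjusted p = 0.00138). Mmp28, epilysin, had 9.60 and 10.5 CPM in induced and 11.8 and 10.7 CPM in normal cells and did not pass (log2 fold change -0.16, edgeR adjusted p = 0.301). Mmp23, at 0.942 and 0.649 CPM in induced and 1.31 and 1.32 CPM in normal cells, did not pass either (log2 fold change -0.70, edgeR adjusted p = 0.133).

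Of the inhibitors, Timp1 and Timp3 rose, and Timp2 and Timp4 did not pass. Timp1, a soluble TIMP that binds the proform of MMP-9 (chromosome X, 20870166 to 20874735, plus strand), had 84.8 and 77.6 CPM in induced cells, against 43.2 and 40.6 CPM in normal cells. The groups did not overlap, with a difference of 0.96 on the log2 scale (SE 0.060, edgeR adjusted p = 5.19e-18), or 1.94-fold. Timp3, which is bound to the matrix (chromosome 10, 86300372 to 86349506, plus strand), had 502 and 534 CPM in induced cells, against 356 and 354 CPM in normal cells. It rose by 0.55 on the log2 scale (SE 0.035, edgeR adjusted p = 9.62e-18). Timp3 lies within Syn3 on the opposite strand, with 1733 bases of exon shared, and Syn3 had 189 CPM on average over the 3T3 libraries and passed as well (log2 fold change 0.52, edgeR adjusted p = 2.33e-14). Timp2, which both inhibits MMPs and takes part in Mmp2 activation, had 834 and 858 CPM in induced cells, against 806 and 811 CPM in normal cells. That difference of 0.066 on the log2 scale (SE 0.031) did not pass (edgeR adjusted p = 0.0925), although it was called by limma-voom and without induced replicate 1. Timp4 was under 1 CPM in every 3T3 library.

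TCF-1 and its relatives bind DNA at a core written CTTTGA. The RefSeq windows of 6 of the 36 members with an entry held these letters on either strand, as did 16% of all windows. The 6 were Mmp1a and Mmp7 of the chromosome 9 cluster and Adamts13, Adamtsl2, Mmp21 and Timp1, of which Timp1 was the only one tested in 3T3. The windows of Timp1 and of Mmp11 are given because these were the members with a RefSeq window that rose most in 3T3, at chrX:20869916-20870215 and, on the minus strand, chr10:75932453-75932752 (RefSeq, GRCm38.p6). Capitals mark CTTTGA, which begins 3 bases after the start of Timp1, and the Mmp11 window does not hold it.
Timp1: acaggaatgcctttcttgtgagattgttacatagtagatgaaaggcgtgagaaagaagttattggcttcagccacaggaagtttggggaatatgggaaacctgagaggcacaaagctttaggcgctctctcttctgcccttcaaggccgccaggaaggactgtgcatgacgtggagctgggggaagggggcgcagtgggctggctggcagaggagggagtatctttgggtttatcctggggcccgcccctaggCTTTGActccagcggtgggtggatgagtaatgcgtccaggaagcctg
Mmp11: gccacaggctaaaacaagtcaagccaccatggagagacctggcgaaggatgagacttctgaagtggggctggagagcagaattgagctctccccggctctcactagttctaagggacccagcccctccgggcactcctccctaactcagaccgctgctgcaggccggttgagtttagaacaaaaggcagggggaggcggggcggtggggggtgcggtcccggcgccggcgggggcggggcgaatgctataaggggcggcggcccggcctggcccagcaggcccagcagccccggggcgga

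Summed per kilobase of exon, the 4 Timp genes had 371 and 373 CPM in induced cells, against 299 and 297 CPM in normal cells. The 23 Mmp genes summed to 387 and 381 CPM per kilobase in induced cells, against 465 and 456 CPM per kilobase in normal cells. The ratio of inhibitor to MMP transcripts was thus 0.960 and 0.979 in induced cells, against 0.644 and 0.652 in normal cells, with no overlap. Mmp2 and Timp2 led these sums, with Timp2 at 217 CPM per kilobase in induced and 208 in normal cells. Mmp14 had 75.3 CPM per kilobase in induced and 108 in normal cells. Timp1 had 91.4 CPM per kilobase in induced and 47.2 in normal cells, and Timp3 had 63.7 in induced and 43.5 in normal cells. Levels of some genes depended on the length used. With the longest transcript in place of all exons, normal cells had 199 CPM per kilobase of Mmp14 and 75.1 of Timp3, which then stood above Timp1 at 47.4. The ratio of sums was then 0.886 and 0.910 in induced cells, against 0.577 and 0.586 in normal cells.

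The ADAMTS proteases that cut the amino-terminal propeptides of fibrillar procollagens were split. Adamts2, the main enzyme for procollagen I (chromosome 11, 50602084 to 50807573, plus strand), had 228 and 217 CPM in induced cells, against 135 and 136 CPM in normal cells. The difference was 0.71 on the log2 scale (SE 0.041, edgeR adjusted p = 3.99e-19), with the groups far apart. Adamts14 had 12.3 and 15.7 CPM in induced cells, against 20.5 and 21.3 CPM in normal cells, and fell by 0.60 on the log2 scale (SE 0.10, edgeR adjusted p = 4.8e-06). Adamts3, the other member of this group, was too low to test.

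The ADAMTS proteases of aggrecan and versican included the ADAMTS genes of highest level per kilobase in these cells, Adamts1 and Adamts5. Adamts4, aggrecanase-1, had 20.4 and 17.7 CPM in induced cells, against 9.88 and 11.7 CPM in normal cells, a difference of 0.83 on the log2 scale (SE 0.11, edgeR adjusted p = 1.67e-08). Adamts5, aggrecanase-2, was nearly alike in the groups, with 448 and 463 CPM in induced cells, against 438 and 445 CPM in normal cells (edgeR adjusted p = 0.336), and per kilobase it was at 42.2 CPM in induced cells where Adamts4 was at 3.96. Its neighbour on chromosome 16, the versican protease Adamts1 (85793827 to 85803113, minus strand, GRCm38), had 543 and 536 CPM in induced cells, against 496 and 490 CPM in normal cells. Adamts1 passed with a small difference of 0.13 on the log2 scale (SE 0.033, edgeR adjusted p = 0.00109), a call that was lost in the joint fit of all 8 libraries and without normal replicate 2 (log2 fold changes of 0.12 to 0.14 over the libraries left out). Adamts9 had 24.1 and 23.9 CPM in induced and 26.7 and 27.7 CPM in normal cells and did not pass (log2 fold change -0.18, edgeR adjusted p = 0.0709).

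Adamts7 and Adamts12, which cut cartilage oligomeric matrix protein, both passed upwards. Adamts7 had 81.8 and 80.4 CPM in induced cells, against 51.0 and 52.9 CPM in normal cells, a difference of 0.64 on the log2 scale (SE 0.055, edgeR adjusted p = 1.92e-13). For Adamts12 the values were 46.9 and 50.2 CPM in induced cells, against 42.9 and 40.4 CPM in normal cells. This difference of 0.22 on the log2 scale (SE 0.065, edgeR adjusted p = 0.00582) was lost with DESeq2, in the joint fit and without normal replicate 2, with log2 fold changes of 0.17 to 0.28 over the libraries left out. Adamts6 had 11.8 and 11 CPM in induced cells, against 17.0 and 14.9 CPM in normal cells, and fell by 0.47 on the log2 scale (SE 0.11, edgeR adjusted p = 0.00039), a call DESeq2 did not make. Adamts10, which binds fibrillin-1, had 24.0 and 23.1 CPM in induced and 24.3 and 27 CPM in normal cells and did not pass (edgeR adjusted p = 0.269). Adamts18 did not pass at 1.41 and 1.37 CPM in induced and 1.06 and 0.747 CPM in normal cells.

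The ADAMTS-like proteins lack a protease domain and are found in the matrix, where several bind fibrillin. Adamtsl1 had 3.65 and 2.81 CPM in induced cells, against 6.88 and 9.25 CPM in normal cells, and fell by 1.31 on the log2 scale (SE 0.18, edgeR adjusted p = 3.35e-08). Adamtsl5 had 47.1 and 44.3 CPM in induced cells, against 54.4 and 48.4 CPM in normal cells. Its fall of 0.16 on the log2 scale passed narrowly (SE 0.065, edgeR adjusted p = 0.043) and was lost with DESeq2, without the filter on low counts, in the joint fit and without induced replicate 2 or normal replicate 1, with log2 fold changes of -0.25 to -0.079 over the libraries left out. Adamtsl4 overlapped between the groups, with 21.9 and 19.9 CPM in induced and 19.96 and 18.6 CPM in normal cells. The 21 members too low to test had between 0 and 10 counts in any 3T3 library.

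**Figure D3:**
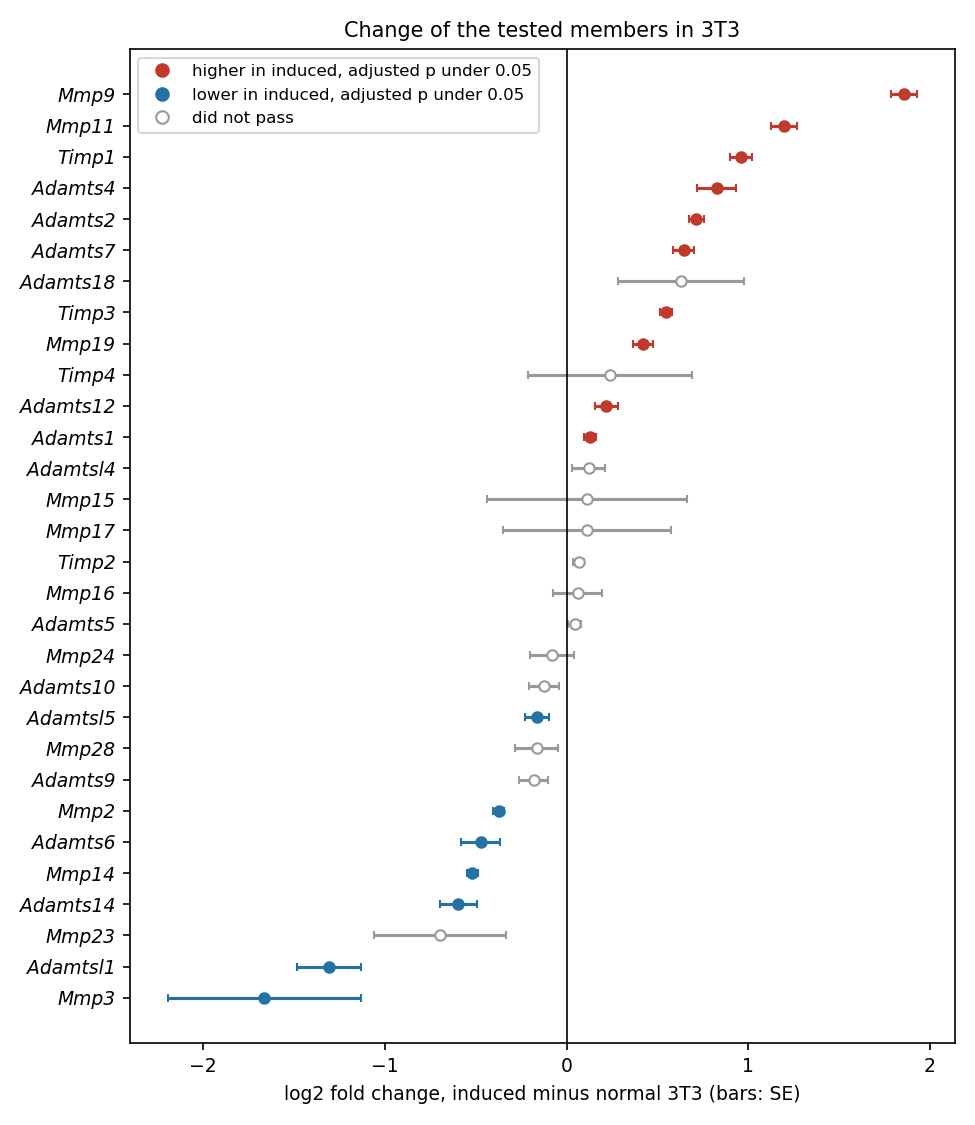
Log2 fold change, induced minus normal 3T3, of the tested matrix protease and inhibitor genes, with bars of 1 SE from edgeR and the calls marked. Mmp9, Mmp11 and Timp1 stand highest at 1.86, 1.19 and 0.96, and Mmp3 and Adamtsl1 lowest at -1.66 and -1.31, with a wide bar for Mmp3.

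Other genes of proteolysis at and outside the cell were read from a list of 69 in 6 groups, of which 51 were tested in 3T3, with 14 that rose, 15 that fell and 22 that did not pass. Over all tested genes 18.5% rose and 18.3% fell, or 25.2% and 23.8% at 5 CPM or more, and nothing particular to the list or its 6 groups is read from their counts. In the plasminogen system 0 of 6 rose and 2 fell. Plat, tissue plasminogen activator, had 31.8 and 31.4 CPM in induced cells, against 55.1 and 55.7 CPM in normal cells. The groups did not overlap, and Plat fell by 0.81 on the log2 scale. Of the ADAM genes on the list 4 of 10 rose, Adam19 by 0.72 and Adam15 by 0.65 on the log2 scale among them, and 3 fell. Of the cathepsins and cystatins 1 of 10 rose and 5 fell, among them the cysteine protease inhibitor Cst3 (log2 fold change -0.40) and the lysosomal Ctsb (-0.30).

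Among genes of procollagen and growth factor processing 3 of 8 rose and 1 fell. Bmp1, which removes the carboxy-terminal propeptides of procollagens, had 195 and 191 CPM in induced cells, against 111 and 109 CPM in normal cells, a difference of 0.82 on the log2 scale, and its enhancer protein Pcolce rose by 0.35. Bmp1 and Adamts2, which act on opposite ends of procollagen, were therefore both higher in both induced libraries than in either normal one. Of the genes that control MMPs at the cell surface 4 of 10 rose and 3 fell. Lcn2, lipocalin-2, whose human protein forms a complex with MMP-9, had 213 and 213 CPM in induced cells, against 3.38 and 2.13 CPM in normal cells, a log2 fold change of 6.28. The tetraspanin Cd151 rose by 0.87 on the log2 scale. Reck, a membrane-anchored MMP inhibitor, and Bsg, basigin, which is known to induce MMPs, were picked after their values were seen. Reck had 36.7 and 39.6 CPM in induced cells, against 29.6 and 30.6 CPM in normal cells, and rose by 0.34 on the log2 scale (edgeR adjusted p = 0.000154). Bsg had 561 and 561 CPM in induced cells, against 847 and 826 CPM in normal cells, and fell by 0.58 on the log2 scale (edgeR adjusted p = 5.47e-20). In the last group, of other matrix proteases and hyaluronidases, 2 of 7 rose, Prss23 among them by 0.49, and 1 fell, Hyal1, by 0.45 on the log2 scale. Adam15, Adam19, Cd151, Ctsb, Prss23, Hyal1 and Pcolce share exon bases with another annotated gene.

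In Scid.adh cells most of the same genes were low, and Timp2 stood far above the rest. Of the 50 genes 17 had enough counts to be tested, of which 10 rose in the knockout, 1 fell and 6 did not pass the edgeR test. Over all 11941 genes tested, 15.6% rose and 15.9% fell. The rises were mostly of genes near the limit of detection. Under 5 CPM in both groups, 8 of the 10 members tested were called higher, where 30.5% of all such genes rose and 3.86% fell. These 8 passed the filter on low counts through the knockout libraries alone, so they were tested because they were high there, and their count and direction are no evidence about the members as a whole. Of the 9 members that passed the filter in both groups, 2 rose (Mmp9 and Mmp11), 1 fell (Timp2) and 6 did not pass the test. At 5 CPM or more, 2 of 7 members rose and 1 fell, beside 11.2% and 19.5% of all such genes.

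More genes were detected at all in the knockout, with 20406 and 20463 genes with a count there, against 18084 and 18041 with the empty vector, although the knockout libraries were the shallower. Members with a count numbered 45 and 45 in knockout libraries, against 32 and 34 in empty vector libraries. Of the 8 fibroblast markers, the 7 other than Pdgfrb summed to 7.30 and 7.48 CPM in the knockout, against 2.02 and 1.60 CPM with the empty vector, where Col3a1, Lum and Sparc had no count. Pdgfrb itself had 4.38 and 3.80 CPM in the knockout, against 120 and 125 CPM with the empty vector. In bulk libraries, more cells of a type and more RNA per cell cannot be told apart, and the part of these shifts in the rises of low members was not tested. DESeq2 called 2 of the members higher (Mmp11 and Mmp14) and 1 lower, against 4.77% and 9.96% of the genes it tested. Against a change of 1.5-fold 4 members were higher (Mmp11, Mmp14, Mmp24 and Adamts2) and 1 lower, against 4.73% and 1.33% of all genes. The count of 10 rises was 5 without empty vector replicate 1 and 6 without empty vector replicate 2 or knockout replicate 1.

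Timp2 had 228 and 221 CPM in knockout cells, against 504 and 563 CPM with the empty vector. The groups were far apart, and Timp2 fell by 1.25 on the log2 scale (SE 0.068, edgeR adjusted p = 7.32e-08), which makes it 2.38-fold lower. This call held in all 12 alternatives tried. It made up 99.4% and 99.5% of the CPM of the 4 Timp genes in knockout libraries, and 99.98% and 99.96% in empty vector libraries. Timp1 and Timp3 had at most 0.356 and 0.973 CPM in any Scid.adh library. The Timp2 window (RefSeq, GRCm38.p6, chr11:118355362-118355661, minus strand) is shown since Timp2 was the only member called lower with the loss of TCF-1, and it holds neither CTTTGA nor TGANTCA.
Timp2: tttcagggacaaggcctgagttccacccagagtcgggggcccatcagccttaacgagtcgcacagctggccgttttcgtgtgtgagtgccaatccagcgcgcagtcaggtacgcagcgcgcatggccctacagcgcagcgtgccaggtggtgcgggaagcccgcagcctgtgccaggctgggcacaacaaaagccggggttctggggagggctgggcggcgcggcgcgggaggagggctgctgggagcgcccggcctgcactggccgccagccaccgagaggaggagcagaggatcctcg

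Mmp9 was the Mmp gene of highest level per kilobase in these cells, with 12.6 and 10.9 CPM in knockout cells, against 8.56 and 7.05 CPM with the empty vector. It passed narrowly at a difference of 0.59 on the log2 scale (SE 0.20, edgeR adjusted p = 0.0409), and the call was lost with DESeq2, without the filter on low counts and without empty vector replicate 2 or knockout replicate 1 (log2 fold changes of 0.45 to 0.73 over the libraries left out). Mmp11 had 7.66 and 8.07 CPM in knockout cells, against 3.83 and 1.92 CPM with the empty vector, and rose by 1.44 on the log2 scale (SE 0.31, edgeR adjusted p = 0.00395), a call kept in all 12 alternatives. Its opposite-strand neighbour Chchd10, at 47.2 CPM on average in Scid.adh, went the other way (log2 fold change -0.47, edgeR adjusted p = 0.00811). Mmp2 had at most 0.486 CPM in any library, and Mmp3 a single read in 1 knockout library.

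Of the membrane-type MMPs, 3 of the 5 tested rose and none fell. All 5 were under 5 CPM in both groups, where 30.5% of all genes rose and 3.86% fell. The 3 that rose passed the filter on low counts through the knockout libraries alone. Their count and direction are therefore no evidence about the membrane-type genes as a group. Mmp14 had 3.65 and 3.68 CPM in knockout cells, against 0.705 and 1.17 CPM with the empty vector, a difference of 1.96 on the log2 scale (SE 0.39, edgeR adjusted p = 0.00268). Mmp24 had 3.53 and 3.2 CPM in knockout cells, against 1.31 and 0.534 CPM with the empty vector (log2 fold change 1.84). Mmp15 had 2.55 and 2.73 CPM in knockout cells, against 0.504 and 1.17 CPM with the empty vector (log2 fold change 1.65). The groups did not overlap for these 3 genes. DESeq2 made neither the Mmp24 nor the Mmp15 call, and the Mmp15 call was also lost against a change of 1.5-fold. The Mmp24 call was further lost without empty vector replicate 2 and the Mmp15 call without empty vector replicate 1. Over the libraries left out, log2 fold changes ran from 1.34 to 2.61 for Mmp24 and from 1.15 to 2.35 for Mmp15. Mmp16 (5.35 and 4.63 CPM in the knockout, 3.22 and 2.78 CPM with the empty vector) and Mmp17 (2.68 and 2.49 CPM in the knockout, 2.12 and 2.03 CPM with the empty vector) did not pass. Mmp28 did not pass either, with 3.65 and 7.12 CPM in knockout cells, against 4.74 and 3.52 CPM with the empty vector.

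Both procollagen proteases tested rose. All 5 genes given here were under 5 CPM in both groups, where 30.5% of all genes rose and 3.86% fell. They passed the filter on low counts through the knockout libraries alone. They were thus tested because they were high there, and no rise of a family is read from them. Adamts2 had 1.58 and 1.42 CPM in knockout cells, against 0.202 and 0.214 CPM with the empty vector (log2 fold change 2.78, SE 0.57, edgeR adjusted p = 0.00307). Adamts14 had 1.70 and 1.19 CPM in the knockout, against 0.504 and 0.320 CPM with the empty vector (log2 fold change 1.77). The proteoglycan proteases Adamts15 (2.19 and 1.19 CPM in the knockout, 0.202 and 0.641 CPM with the empty vector) and Adamts8 (1.82 and 1.42 CPM in the knockout, 0.101 and 0.641 CPM with the empty vector) also rose, by 1.98 and 2.12 on the log2 scale. Adamtsl5, at 1.82 and 1.66 CPM in the knockout and 0.504 and 0.534 CPM with the empty vector, rose by 1.72. DESeq2 made none of these 5 calls. The 4 other than Adamts2 were also lost without empty vector replicate 1 or knockout replicate 1, and Adamts14 and Adamtsl5 without empty vector replicate 2 as well. Over the libraries left out, log2 fold changes ran from 1.36 to 2.97 for Adamts15, from 1.31 to 3.82 for Adamts8, from 1.48 to 2.11 for Adamts14 and from 1.65 to 1.79 for Adamtsl5.

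The ADAMTS family genes of higher level in this line did not pass. Adamts17, a gene mutated in a human connective tissue syndrome, came after Timp2 in level, at 4.12 CPM per kilobase in the knockout and 3.22 with the empty vector. It had 28.0 and 36.1 CPM in knockout cells, against 26.5 and 23.5 CPM with the empty vector (edgeR adjusted p = 0.0736). It was called higher with the replicate block (edgeR adjusted p = 0.0367), in the joint fit (0.0419) and without knockout replicate 1 (0.00288), and log2 fold changes over the libraries left out ran from 0.16 to 0.52. Adamtsl2, which binds fibrillin-1, had 10.2 and 10.3 CPM in knockout cells, against 13.0 and 12.7 CPM with the empty vector (edgeR adjusted p = 0.185). Adamts10 overlapped between groups, with 7.78 and 10.7 CPM in the knockout and 11.2 and 10.3 CPM with the empty vector. In 3T3, Adamts17 and Adamtsl2 were under 0.6 CPM in every library and were not tested.

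**Figure D4:**
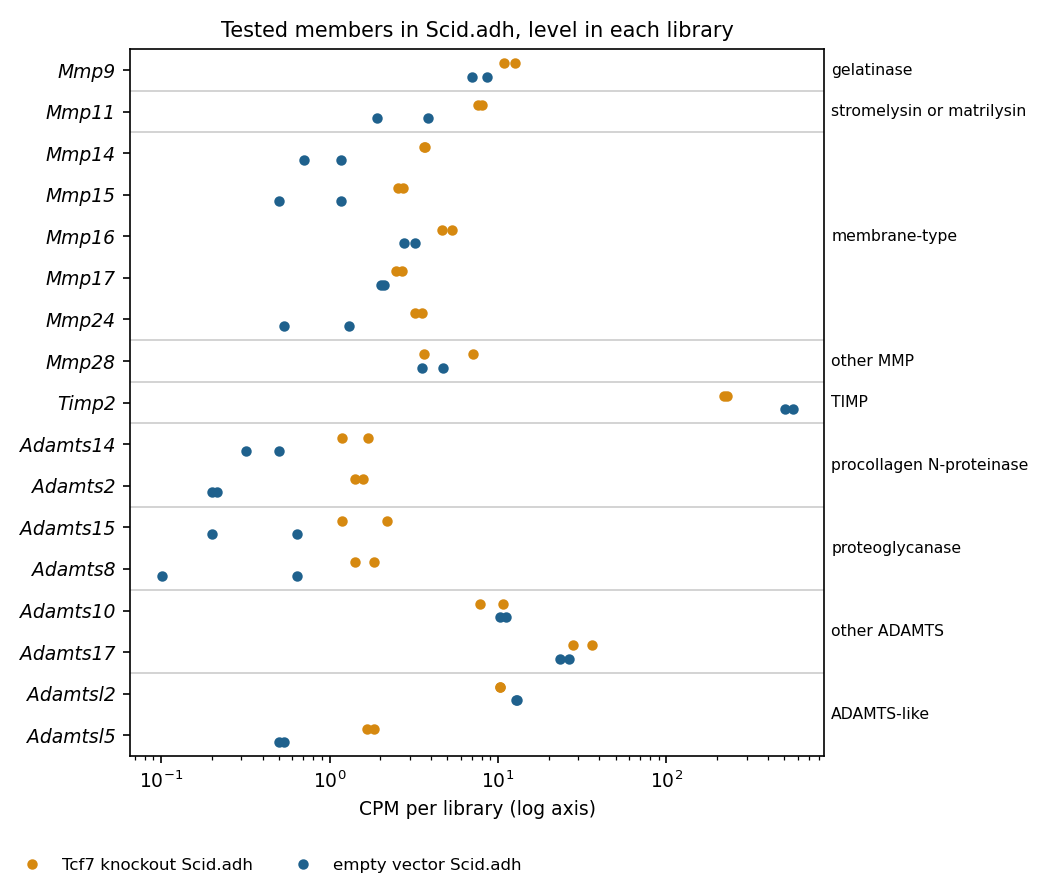
Levels of the tested matrix protease and inhibitor genes in Scid.adh cells, as CPM on a log scale, with a point for each knockout and each empty vector library. Timp2 stands above 200 CPM in every library and is lower in both knockout libraries, while the genes that are higher in the knockout lie mostly under 5 CPM.

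In the balance of inhibitor to MMP transcripts in Scid.adh, the inhibitor side rested on Timp2. Summed per kilobase of exon, the Timp genes had 58.8 and 57.1 CPM in knockout cells, against 130 and 145 CPM with the empty vector. The Mmp genes had 11.2 and 11.8 CPM per kilobase in knockout cells, against 6.54 and 5.44 with the empty vector. The ratio was 5.23 and 4.84 in knockout cells, against 19.8 and 26.6 with the empty vector, and so lower in both knockout libraries. Both the lower Timp sum and the higher Mmp sum entered this fall, and most of the Mmp genes were near the limit of detection. In 3T3, where Tcf7 was raised, the ratio was higher in both induced libraries.

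The gain and the loss of TCF-1 were set against each other in a fit of all 8 libraries, in which the difference is the effect of induction in 3T3 minus the effect of the knockout in Scid.adh. For 7 of the 13 members tested in both lines, these effects differed at an edgeR adjusted p under 0.05. Among the 11038 genes tested in both, 38.5% did. Tcf7 was raised in the 3T3 comparison and lowered in the Scid.adh comparison, so effects of opposite sign give a large difference. A difference that passed therefore does not show that the lines respond differently to TCF-1. Nor does a difference that did not pass show that they respond alike. Mmp9, Mmp11 and Adamts2 rose in both comparisons, and Mmp14, Adamts14 and Adamtsl5 fell with induction and rose in the knockout. Mmp14 had the difference of largest size, -2.48 on the log2 scale (edgeR adjusted p = 6.56e-08), followed by Adamts14 at -2.36 and Adamts2 at -2.08. These 3, and Mmp24 and Adamtsl5, were among the members that passed the Scid.adh filter through the knockout libraries alone, which favours a rise there and so a negative difference, and their order carries no weight. For Timp2 the difference was 1.32 (edgeR adjusted p = 1.54e-15) and for Mmp9 it was 1.27 (edgeR adjusted p = 5.53e-06). The effects on Mmp11 were 1.19 and 1.44 on the log2 scale, and their difference of -0.24 (SE 0.26) did not pass (edgeR adjusted p = 0.541). Line, kind of manipulation and doxycycline all differ between these comparisons and cannot be told apart.

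**Figure D5:**
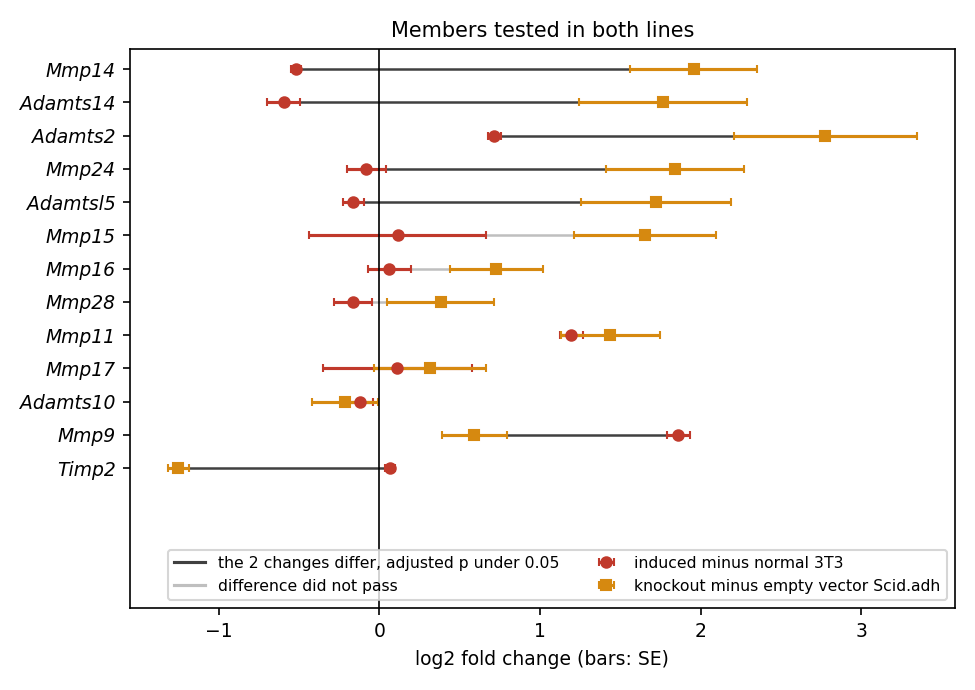
Log2 fold change of the 13 members tested in both lines, with a row for each gene. Both changes, induced minus normal 3T3 and knockout minus empty vector Scid.adh, lie on the same horizontal axis with bars of 1 SE. A line joins them, darker where the difference passed, and rows are ordered by the difference. Timp2 is the bottom row, at -1.25 in Scid.adh and 0.066 in 3T3, and Mmp14 the top row, at -0.52 in 3T3 and 1.96 in Scid.adh.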

How the data were processed

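The values used were gene counts deposited by the authors, 1 file per library. The submitters' processing notes name STAR 2.5.0a and HTSeq 0.6.1. Alignment files were merged before counting in 3T3, per the file headers. The counting program for 3T3, its annotation and strand setting, and any molecular identifiers are not named in the labels or headers, so limits cover counting error only. Rows of the Scid.adh files that sum reads given to no gene were left out and made up 21.3% to 25.8% (outside genes) and 2.20% to 2.44% (ambiguous) of the reads there.

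Symbols came from an Ensembl name table, positions, exon lengths and overlaps from GENCODE M21 (GRCm38), and promoter windows from RefSeq (GRCm38.p6), where 36 of 51 members matched. After filterByExpr and TMM scaling, each line was tested alone with the robust quasi-likelihood F-test of edgeR 4.0.16 in R 4.3.3, with Benjamini-Hochberg adjustment over all tested genes and a call at an adjusted p under 0.05. CPM values are counts scaled to the TMM-adjusted library size, and levels between genes are CPM per kilobase of all annotated exons. Log2 fold changes are the induced over the normal group and the knockout over the empty vector group. Sums over families and the ratio of sums have no test. Whether libraries of the same number belong together is not given, and the main test did not pair them. Their deviations from the group means correlated by 0.012 in 3T3 and 0.0015 in Scid.adh. With 2 libraries per group, such low values do not show that the libraries were unpaired.

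Named were Mmp2, Mmp3, Timp1, Timp3, members with a mean of at least 5 CPM in a 3T3 group, called members below that, members tested in Scid.adh, and per group of the proteolysis list up to 2 called genes with the largest change. Some genes that this rule takes are not reported here. Other genes named with values were chosen after their values were seen. The members and lists were chosen with earlier results of these data known. Alternatives were DESeq2 size factors, DESeq2 1.42.0, limma-voom 3.58.1, no low-count filter, a filter at a mean of 1 CPM, a replicate block, a test against 1.5-fold, each library left out and all 8 libraries in a joint fit. The ratio of sums with the longest transcript as length was added after the values were seen. The steps were tested on simulated data. Python 3.11.15 (matplotlib 3.10.9, NumPy 2.4.6, pandas 2.3.3) made the tables and figures.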

Additional observations from a re-analysis of the deposited data

Results flagged for a closer look

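For 7 of the 13 members tested in both lines the effect of inducing TCF-1 in 3T3 and the effect of its knockout in Scid.adh differed by edgeR's quasi-likelihood test of the difference, adjusted over all genes of the joint fit. The differences, induction minus knockout on the log2 scale, were -2.48 for Mmp14, -2.36 for Adamts14, -2.08 for Adamts2, -1.92 for Mmp24, -1.89 for Adamtsl5, 1.27 for Mmp9 and 1.32 for Timp2. The 5 genes with a negative difference were under 5 CPM in Scid.adh and passed its filter on low counts through the knockout libraries alone, which favours that sign. Mmp9 and Timp2 were above 5 CPM in every library of both lines. Because Tcf7 was raised in the 3T3 comparison and lowered in the Scid.adh comparison, a passed difference does not show unlike responses to TCF-1.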

How the results depend on the processing

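In 3T3 the 10 rises became 4 and the 7 falls 1 in the test against 1.5-fold, and the falls were 4 with DESeq2. Leaving out each library in turn gave 8 to 12 rises and 5 to 6 falls. In Scid.adh the 10 rises became 2 with DESeq2, 16 in the joint fit and 4 against 1.5-fold, and 5 to 10 without a library, while the count of 1 fall stayed at 1 in every alternative. In the proteolysis list the 14 rises and 15 falls became 4 and 3 against 1.5-fold, and 12 to 15 and 13 to 15 without a library. With the replicate number as a block, 10 members rose and 7 fell in 3T3, and 11 rose and 1 fell in Scid.adh (Adamts17 was added). In the proteolysis list 15 genes rose and 15 fell in 3T3. The effects of induction and knockout differed for 7 members. Whether the numbers pair the libraries is not given.

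With the longest transcript in place of all exons, levels in normal 3T3 cells were 346 CPM per kilobase for Mmp2, 199 for Mmp14, 218 for Timp2 and 75.1 for Timp3. Without a library, the log2 fold changes of genes that had not passed ran from -0.058 to 0.19 for Mmp16 and from -0.15 to 0.0054 for Mmp24 in 3T3, and from -0.18 to 0.77 for Mmp28 in Scid.adh. With 1 library left in a group, that library was assumed to vary like the others. Depth limits the genes under 5 CPM most, as in Scid.adh, where a count of 3 stood for 0.302 to 0.365 CPM.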

Other observations

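In Scid.adh 33 genes of the proteolysis list were tested, of which 8 rose and 7 fell in the knockout, where 15.6% of all tested genes rose and 15.9% fell (30.5% and 3.86% under 5 CPM). The genes given here were chosen after their values were seen. Adam19, a sheddase, had 4.50 and 4.63 CPM in knockout cells, against 16.4 and 14.7 CPM with the empty vector, and fell by 1.77 on the log2 scale. Adam19 rose in 3T3 cells, where Tcf7 was raised rather than lowered. Adam15 also fell in the knockout, by 0.66 on the log2 scale, with 5.96 and 8.43 CPM in knockout cells, against 11 and 11.9 CPM with the empty vector. It too rose with induction in 3T3. The other 2 ADAM genes called in Scid.adh rose in the knockout. Adam12 had 2.43 and 2.73 CPM in knockout cells, against 0.806 and 0.534 CPM with the empty vector, and rose by 1.92 on the log2 scale. Adam23 had 2.19 and 2.73 CPM in knockout cells, against 0.403 and 0.747 CPM with the empty vector, and rose by 2.08. In 3T3 Adam23 also rose with induction, by 0.13 on the log2 scale. With the empty vector Adam12 had 8 and 5 counts and Adam23 had 4 and 7. Both passed the filter on low counts through the knockout libraries alone, which favours a rise. No direction of the ADAM genes is therefore read from these 2 rises. The lysosomal proteases Ctsb, Ctsc and Ctsd fell by 0.47, 0.46 and 0.45 on the log2 scale, whereas Ctsl rose by 0.28. Spock1, a matrix proteoglycan of the testican family, had 6.08 and 6.29 CPM in knockout cells, against 0.705 and 1.07 CPM with the empty vector. It rose by 2.79 on the log2 scale, and it too passed the filter through the knockout libraries alone.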
